A study of Danio rerio with 6 samples.

Results

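The genes described here make heme, bring iron to it and build the red blood cell around it. They are 10 genes picked by symbol: the regulators gata1a and klf17, the heme enzymes alas2, urod and fech, the iron carriers tfr1a and slc25a37, the membrane proteins slc4a1a and epb41b, and the carbonic anhydrase gene cahz. Each symbol matched 1 Ensembl gene, giving 10 of the 32520 genes in the count table, and all 10 passed the filter on low counts that left 22347 genes for testing. RNA was sequenced from zebrafish (Danio rerio) embryos at 3 days post fertilization, with 3 pools from the wild type (WT) and 3 pools of knockouts of the gene bcas2 (bcas2-KO). Every pool held 10 embryos of 1 genotype, and whether they were whole is not stated. The labels name neither the mutant allele nor the clutches from which the pools came, and give no treatment for either genotype.

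Heme is a ring that holds iron. Developing red cells make it in a chain of enzymes that starts in the mitochondrion, passes through the cytosol and ends in the mitochondrion again, where iron is inserted. Iron reaches the cell bound to transferrin and crosses the inner mitochondrial membrane through a dedicated carrier, and the finished heme is built into hemoglobin. Many of these genes are known in zebrafish from anemic mutants named after wines, among them sauternes (alas2), yquem (urod), chianti (tfr1a), frascati (slc25a37), retsina (slc4a1a) and merlot (epb41b). Mutants in fech and gata1a are known as dracula and vlad tepes. Some of the genes, such as urod, fech and tfr1a, are used by other cells too, so their reads in embryo RNA do not come from red cells alone.

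Library totals ranged from 32822716 to 49526995 counts. Levels in CPM are counts scaled by the library's total over the tested genes and its TMM factor. The targeted gene bcas2 had 28.2 ± 1.06 CPM in the WT pools and 3.71 ± 0.715 CPM in the bcas2-KO pools (SD, n = 3 per genotype, log2 fold change -2.94, adjusted p = 4.4e-06 by the edgeR quasi-likelihood test). Embryos of this age have a lens and a retina. Yet 10 lens and photoreceptor markers summed to just 1.82 to 4.28 CPM in 4 of the 6 libraries. In WT library 1 and bcas2-KO library 3 they summed to 380 and 231 CPM. The reason for this difference was not tested. The gene tests and the ratios were also computed without both of these libraries, and calls of named genes that were lost or gained are given. Red cells were represented in every pool: the globin genes listed took 0.124% to 0.215% of all counts in WT and 0.0866% to 0.120% in bcas2-KO.

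The 10 genes did not move as a block. Only cahz fell and only tfr1a rose at an adjusted p under 0.05, and the other 8 did not pass. Over all tested genes 9.01% were lower and 10.6% were higher in bcas2-KO, so 1 of 10 in each direction is near the background. The median log2 fold change of the 10 genes, bcas2-KO over WT, was 0.15, with a range from -0.53 to 0.44, and that of all tested genes was -0.02. In the same libraries 6 of 10 tested embryonic globin genes fell and 0 rose, with a median of -0.93. In pooled embryos, fewer red cells and less RNA per red cell cannot be told apart.

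**Figure D1:**
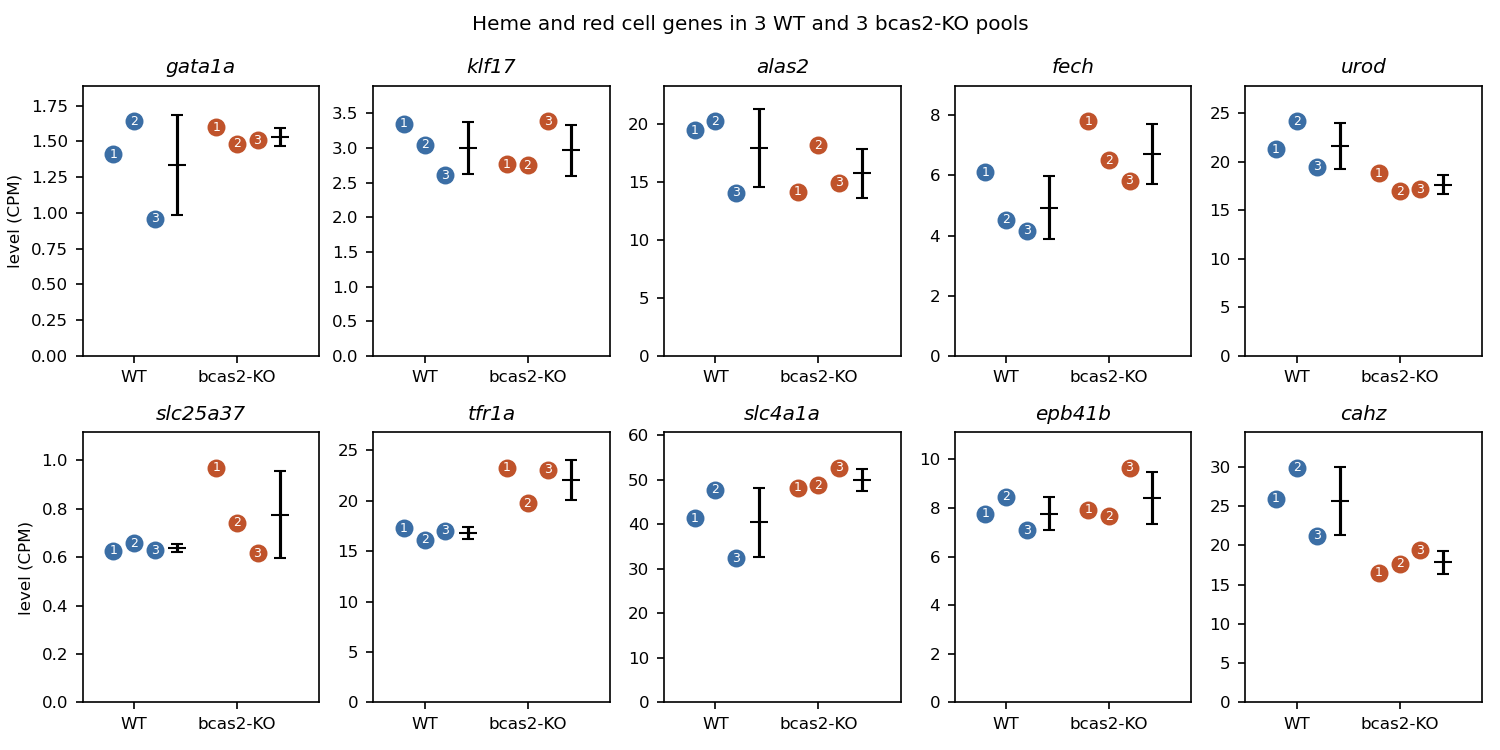
Level of each of the 10 genes in CPM (vertical axis, from 0) in the 3 WT pools (blue) and the 3 bcas2-KO pools (orange). Each numbered point is 1 library with its replicate number, and the bar to its right is the mean ± SD over 3 pools. The genotypes are apart for urod and cahz (lower) and for tfr1a and slc4a1a (higher), as for 19.4% and 20.1% of all tested genes. WT library 3 is the lowest WT library for 8 of the 10 genes.

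Per length of transcript, the most abundant of these genes differed about 56-fold from the least abundant. By the authors' FPKM values averaged over the 6 libraries the order was urod (33.6), slc4a1a (28.0), cahz (25.1), tfr1a (14.7), alas2 (12.5), fech (8.97), klf17 (4.05), epb41b (3.24), gata1a (1.51) and slc25a37 (0.597). The ranges over the libraries overlapped for the neighbours urod and slc4a1a, slc4a1a and cahz, tfr1a and alas2, alas2 and fech, and klf17 and epb41b. They did not overlap between cahz and tfr1a, fech and klf17, epb41b and gata1a, or gata1a and slc25a37. The enzyme, carrier and membrane genes other than epb41b and slc25a37 thus lay above both regulators in FPKM.

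Neither regulator passed the test. The gene gata1a codes for the GATA factor that drives red cell differentiation, and klf17 for a Krüppel-like factor of early red cell development in zebrafish. The level of gata1a was 1.41, 1.64 and 0.957 CPM in WT libraries 1 to 3 and 1.60, 1.48 and 1.51 CPM in bcas2-KO libraries 1 to 3. One WT pool was low and the other values lay close together, with overlap between the genotypes (log2 fold change 0.19, 95% interval -0.34 to 0.71, adjusted p = 0.616, edgeR). These levels rest on 32 to 72 counts per library. The level of klf17 was 3.35, 3.05 and 2.60 CPM in the WT pools and 2.76, 2.75 and 3.38 CPM in the bcas2-KO pools, also with overlap (log2 fold change -0.02, 95% interval -0.41 to 0.36, adjusted p = 0.939, edgeR). These intervals leave room for changes of either sign.

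The 3 heme enzymes among the members had fold changes of both signs. The gene alas2 codes for the red cell form of 5-aminolevulinate synthase, the first and rate-limiting enzyme. Its level was 19.4, 20.2 and 14.0 CPM in the WT pools and 14.1, 18.1 and 14.9 CPM in the bcas2-KO pools. The values overlapped, with WT library 3 just under the lowest bcas2-KO library, and the test did not pass (log2 fold change -0.19, SE 0.15, 95% interval -0.53 to 0.15, adjusted p = 0.415, edgeR). It was -0.08 without both libraries that held eye transcripts (adjusted p = 0.822).

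The gene urod codes for uroporphyrinogen decarboxylase, a cytosolic enzyme in the middle of the chain. Its level was 21.3, 24.2 and 19.5 CPM in the WT pools and 18.8, 17.0 and 17.2 CPM in the bcas2-KO pools. Every bcas2-KO library lay below every WT library, a pattern shown by 19.4% of tested genes. With a log2 fold change of -0.29 (SE 0.10, adjusted p = 0.0733, edgeR) it did not pass. It passed without WT library 3 (-0.36, adjusted p = 0.0456) and with upper-quartile scaling (-0.35, adjusted p = 0.0394).

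The gene fech codes for ferrochelatase, the last enzyme, which inserts the iron. Its level was 6.11, 4.52 and 4.16 CPM in the WT pools and 7.80, 6.51 and 5.81 CPM in the bcas2-KO pools. All but the lowest bcas2-KO library lay above all WT libraries. With a log2 fold change of 0.44 (SE 0.17, adjusted p = 0.105, edgeR) it did not pass. It was 0.63 without WT library 1 (adjusted p = 0.0251) and 0.73 without both libraries that held eye transcripts (adjusted p = 0.0254). Per 100 urod counts there were 28.7, 18.7 and 21.4 fech counts in WT and 41.4, 38.3 and 33.8 in bcas2-KO. This pair was chosen after its values were seen, so the 1.65-fold higher ratio is a description. By the mean of the log2 ratios it was 1.67-fold higher, and 1.99-fold higher without both libraries that held eye transcripts. The ratio of tfr1a to urod was 1.59-fold higher in bcas2-KO. Its lack of overlap was fixed in advance, since in CPM tfr1a was higher and urod lower without overlap. How many of all tested genes are apart relative to urod was not computed.

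Transcripts of tfr1a rose in bcas2-KO. The gene codes for the transferrin receptor that supplies zebrafish red cells with iron. Its level was 17.3, 16.1 and 17.0 CPM in the WT pools and 23.3, 19.8 and 23.1 CPM in the bcas2-KO pools. The WT libraries lay close together and every bcas2-KO library lay above them. That made 16.8 ± 0.600 against 22.0 ± 1.97 CPM (SD, n = 3 per genotype), 1.31-fold higher, with a log2 fold change of 0.39 (SE 0.10, adjusted p = 0.0202, edgeR). Leaving out WT library 2 (adjusted p = 0.0885), the first (0.0790) or the third bcas2-KO pool (0.0702), or both libraries that held eye transcripts (0.0659) ended the call, at log2 fold changes of 0.36 to 0.39.

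The second iron carrier, slc25a37, codes for mitoferrin 1, which takes iron into the mitochondria of red cells. It was the scarcest of the 10 genes, with 20 to 40 counts per library. Its level was 0.626, 0.656 and 0.628 CPM in the WT pools and 0.969, 0.742 and 0.615 CPM in the bcas2-KO pools. The values of bcas2-KO libraries 1 and 2 lay above all WT libraries and that of library 3 below them, and the test did not pass (log2 fold change 0.29, 95% interval -0.32 to 0.90, adjusted p = 0.491, edgeR). The genes slc25a37 and alas2 lie on the same chromosome as bcas2 in the RefSeq gene table, so for these 2 genes an effect of linked alleles and an effect of the lost gene cannot be told apart.

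Both membrane genes had positive fold changes that did not pass. The gene slc4a1a codes for band 3, the chloride-bicarbonate exchanger of the red cell membrane. Its level was 41.3, 47.7 and 32.4 CPM in the WT pools and 48.2, 48.7 and 52.7 CPM in the bcas2-KO pools. The bcas2-KO libraries lay above the WT libraries, a pattern shown by 20.1% of tested genes, although the gap to WT library 2 was small. Its log2 fold change of 0.30 (SE 0.13, 95% interval 0.01 to 0.59, adjusted p = 0.131, edgeR) did not pass, and it was 0.16 without WT library 3 and 0.44 without WT library 2.

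The gene epb41b codes for protein 4.1, which ties the spectrin skeleton to the membrane. Its level was 7.77, 8.46 and 7.09 CPM in the WT pools and 7.92, 7.67 and 9.66 CPM in the bcas2-KO pools. Apart from bcas2-KO library 3, the values of both genotypes were mixed (log2 fold change 0.11, 95% interval -0.18 to 0.40, adjusted p = 0.582, edgeR).

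Transcripts of cahz fell in bcas2-KO. The gene codes for a cytosolic carbonic anhydrase of zebrafish red cells, an enzyme that converts carbon dioxide and bicarbonate into each other. Its level was 25.9, 29.9 and 21.2 CPM in the WT pools and 16.5, 17.7 and 19.4 CPM in the bcas2-KO pools. Each bcas2-KO library lay below each WT library. That made 25.7 ± 4.34 against 17.9 ± 1.44 CPM (SD, n = 3 per genotype), 1.44-fold lower, with a log2 fold change of -0.53 (SE 0.13, adjusted p = 0.0201, edgeR). Leaving out WT library 2 (adjusted p = 0.0863), the first (0.0914) or the second bcas2-KO pool (0.0601), or both libraries that held eye transcripts (0.0570) ended this call too. In these fits the log2 fold change was -0.40, -0.47, -0.52 and -0.57.

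**Figure D2:**
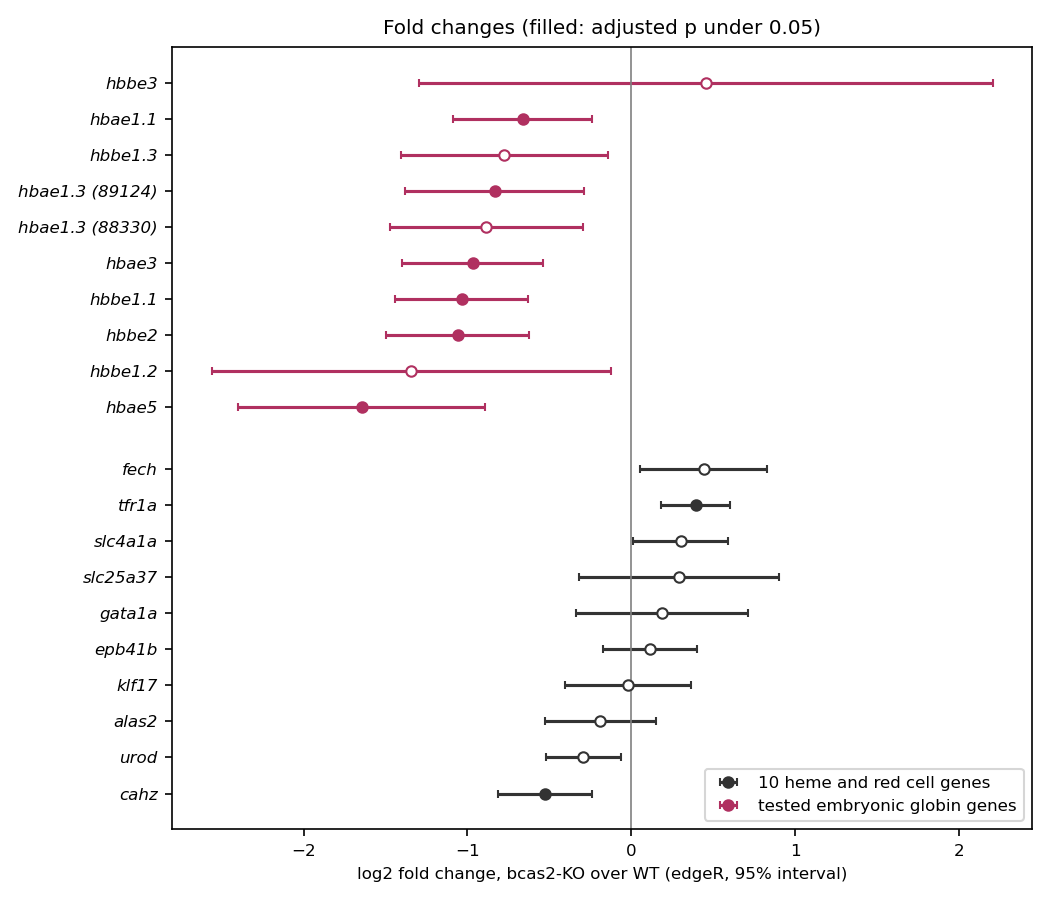
Log2 fold change of bcas2-KO over WT (horizontal axis) with its 95% interval from edgeR for the 10 heme and red cell genes (black) and the 10 tested embryonic globin genes (red). Filled points have an adjusted p under 0.05, and numbers after hbae1.3 are the last digits of its 2 Ensembl identifiers. The points of the globin genes other than hbbe3 lie between -1.65 and -0.66, below the point of every one of the 10 genes. Intervals overlap, for example -0.81 to -0.24 for cahz and -1.09 to -0.24 for hbae1.1.

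The ratio of cahz to slc4a1a varied little within each genotype and differed between the genotypes. The pair was chosen after its values were seen, so this is a description. For every 100 slc4a1a counts there were 62.8, 62.7 and 65.6 cahz counts in the WT libraries. In the bcas2-KO libraries there were 34.3, 36.3 and 36.8. The WT libraries varied 1.47-fold in slc4a1a and almost as much in cahz. The ratio varied with a coefficient of variation of 2.62% in WT and 3.67% in bcas2-KO. Counting error alone would give 3.97% and 4.49%, so a spread this small cannot be told from counting error. For the other 8 members the ratio to slc4a1a varied by 5.62% to 22.1% in WT and 7.22% to 27.0% in bcas2-KO. The scarcer genes also carry more counting error. Because the pair was picked from these same values, its smaller spread was fixed by that choice. The share of all tested genes with so small a spread was not computed. The mean ratio was 63.7 ± 1.67 in WT and 35.8 ± 1.31 in bcas2-KO (SD, n = 3 per genotype), 1.78-fold lower. In CPM cahz was lower and slc4a1a higher without overlap, so their ratio had to be apart between the genotypes. The difference in the ratio thus restates the values of the single genes. Band 3 and carbonic anhydrase work on the same substrate, bicarbonate, and a link between their transcripts was not tested.

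**Figure D3:**
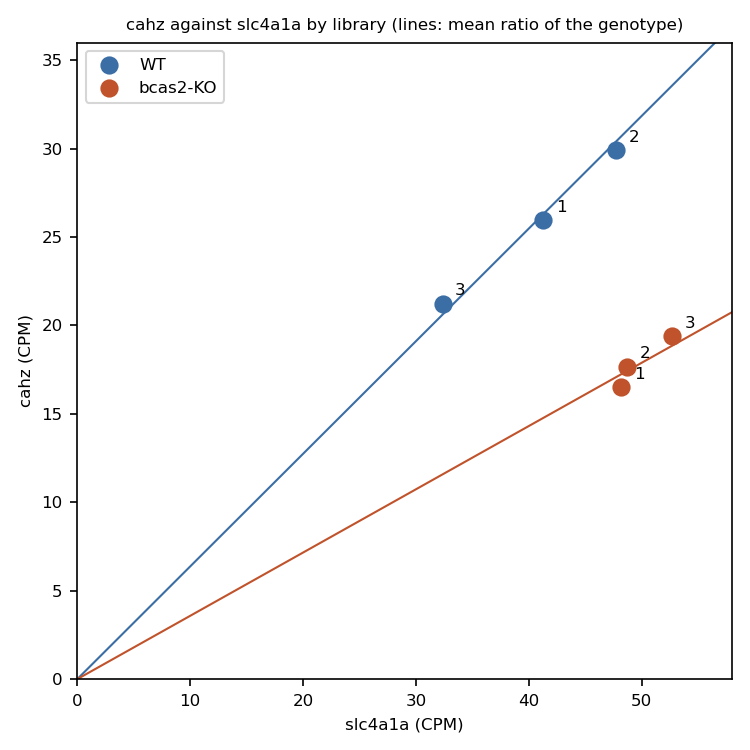
Level of cahz (vertical axis, CPM) against slc4a1a (horizontal axis, CPM) in each library, with replicate numbers, WT in blue and bcas2-KO in orange. Each line runs through 0 with the genotype's mean count ratio, 63.7 or 35.8 cahz counts per 100 slc4a1a counts, and each library lies close to the line of its own genotype.

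The same ratio was computed for all other members, with slc4a1a as the reference chosen after its values were seen. Of 9 genes, cahz, urod and alas2 were lower relative to slc4a1a in every bcas2-KO library than in every WT library, 0 were higher and 6 overlapped. Over all other tested genes, 36.3% were lower and 3.3% higher in this way, so 3 of 9 is near the background. Per 100 slc4a1a counts, urod had 51.5, 50.7 and 60.2 counts in WT and 39.1, 34.8 and 32.6 in bcas2-KO. For alas2 there were 47.1, 42.3 and 43.3 in WT and 29.3, 37.2 and 28.3 in bcas2-KO. The ratio of gata1a was 3.41, 3.44 and 2.96 in WT and 3.32, 3.05 and 2.86 in bcas2-KO, with overlap. An exact permutation test (two-sided) with 3 against 3 libraries cannot go below p = 0.1, which it reached for cahz, urod and alas2 (adjusted p = 0.3 over 9 genes). For cahz and urod this outcome was fixed in advance, as both were lower and slc4a1a was higher in CPM without overlap. Of the 3 genes, only alas2 overlapped between the genotypes in CPM.

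Relative to the globins, 8 of the 10 genes were higher in bcas2-KO without overlap, as were 55.7% of all tested genes. Counts were divided by the sum over 15 globin rows, of which the 5 rows for adult globins summed to at most 0.419 CPM. Per 100000 globin counts, alas2 had 933, 1028 and 1068 counts in WT and 1715, 1510 and 1645 in bcas2-KO, 1.61-fold higher by the mean of the log2 ratios. The ratio of slc4a1a was 1982, 2427 and 2464 in WT and 5850, 4056 and 5821 in bcas2-KO, 2.27-fold higher. That of gata1a was 67.6, 83.5 and 72.9 in WT and 194, 124 and 167 in bcas2-KO, 2.13-fold higher. In these 3 genes the genotypes were apart.

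All told, 8 of 10 genes were higher per globin count in every bcas2-KO library than in every WT library, and urod and cahz overlapped. The median log2 difference over the 10 genes was 1.03, and 0 were lower. Of all tested genes, 55.7% were higher in this way and 0.577% were lower, and the globins that form the divisor were lower in bcas2-KO. The exact permutation test gave its smallest possible p of 0.1 for each of the 8 genes (two-sided, adjusted p = 0.125 over 10 genes), 0.2 for urod and 0.3 for cahz. The ratio of cahz was 1.27-fold higher, the smallest difference of the 10. Without both libraries that held eye transcripts the median log2 difference was 0.85 and that of cahz 0.13.

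**Figure D4:**
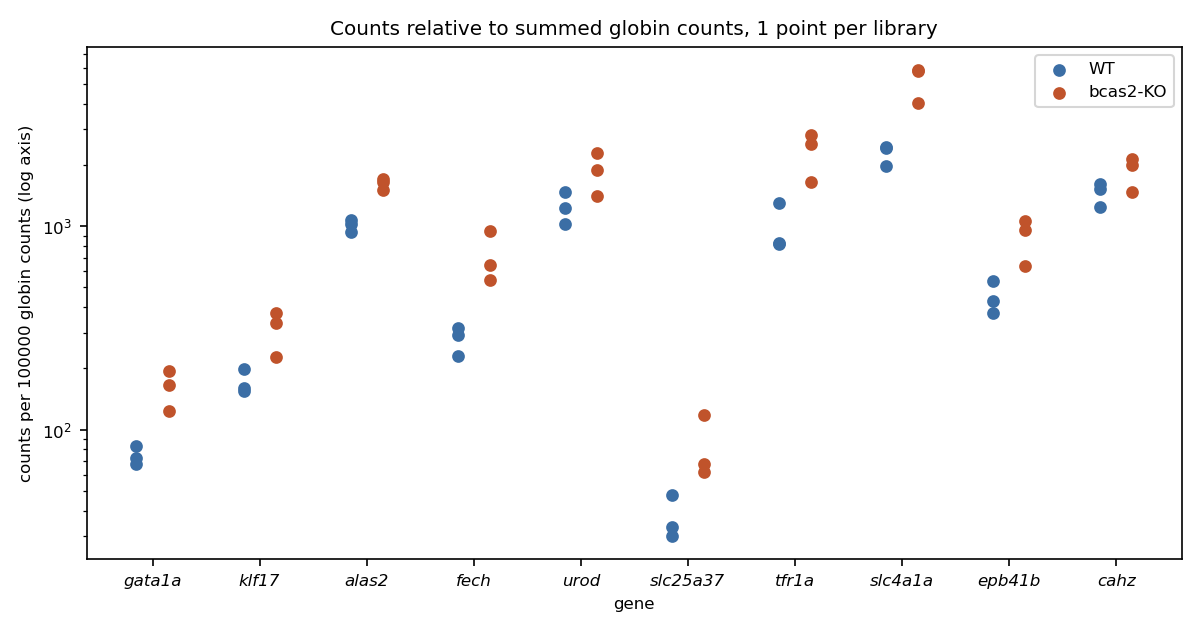
Counts of each of the 10 genes per 100000 summed globin counts (vertical axis, log scale), 1 point per library, WT in blue and bcas2-KO in orange. The genotypes overlap for urod and cahz and are apart for the other 8 genes, with slc4a1a at 1982 to 2464 in WT and 4056 to 5850 in bcas2-KO.

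Of the 10 tested globin genes 6 fell, 0 rose and 4 did not pass, beside 9.01% of all tested genes called lower. Of those that did not pass, hbbe3 had a positive log2 fold change (0.46, adjusted p = 0.684, edgeR). The called hbae1.1 (-0.66, adjusted p = 0.0413) overlapped between the genotypes. Its call was missed in 5 of the 7 fits that left libraries out. Embryonic beta globin hbbe1.1 had 270, 287 and 214 CPM in the WT pools and 101, 157 and 118 CPM in the bcas2-KO pools (log2 fold change -1.04, adjusted p = 0.0071, edgeR), and the alpha globin hbae3 had a log2 fold change of -0.97 (adjusted p = 0.0119). Without both libraries that held eye transcripts, 2 globin genes were called, and hbbe1.1 (adjusted p = 0.0868) and hbae3 (0.113) were not. The hbae3 call was also missed without WT library 1 or 2 (0.0506 and 0.0504). Globin genes resemble each other, and the handling of reads with several matches is not stated, so values of single copies are uncertain.

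Beyond the members, calls in the wider gene lists stand beside the shares over all tested genes, 9.01% lower and 10.6% higher. The chain of heme synthesis was mostly without calls. Of its 7 enzyme genes other than alas2, urod and fech 1 fell, 0 rose and 6 did not pass, with a median log2 fold change of -0.01, close to that over all genes. The one that fell was alas1, the form of the first enzyme that all cells use, from 277 ± 36.6 to 214 ± 6.06 CPM (log2 fold change -0.37, adjusted p = 0.0296, edgeR). Its level was 238, 282 and 311 CPM in the WT pools and 208, 216 and 219 CPM in the bcas2-KO pools. Its call was lost when any library except WT library 1 was left out (adjusted p = 0.0693 to 0.111). The enzymes alad, hmbsa, uros and cpox had log2 fold changes between -0.03 and 0.05, and hmbsb (0.21) and ppox (-0.21) lay further from 0 and did not pass.

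Among genes that carry iron and heme or load iron into proteins, 2 of 32 fell and 2 rose besides the members, with a median of -0.03. The tfr1a relative tfr1b rose from 30.6 ± 0.695 to 38.7 ± 4.22 CPM (log2 fold change 0.34, adjusted p = 0.0329, edgeR). The gene slc25a28, for mitoferrin 2, the mitochondrial iron carrier of cells other than red cells, rose from 59.3 ± 6.47 to 82.3 ± 4.09 CPM (0.47, adjusted p = 0.0082). The transporter gene flvcr2b fell from 15.0 ± 0.830 to 9.90 ± 0.340 CPM (-0.60, adjusted p = 0.0031). Also lower was glrx5 (-0.26, adjusted p = 0.0355), the shiraz gene of zebrafish, whose glutaredoxin serves iron-sulfur cluster assembly. The calls of slc25a28 and flvcr2b held when each library was left out. For tfr1b the call was missed without WT library 2 (0.108), WT library 3 (0.0693), the first (0.105) or the third bcas2-KO pool (0.109) or both libraries that held eye transcripts (0.0986). That of glrx5 was lost when any library except WT library 1 was left out (0.0633 to 0.147), and without both libraries that held eye transcripts (0.0713).

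In the red cell membrane and its skeleton 1 of 21 tested genes other than slc4a1a and epb41b fell, 1 rose and 19 did not pass (median 0.01). The stomatin gene stom rose from 50.3 ± 1.50 to 67.7 ± 3.66 CPM (log2 fold change 0.43, adjusted p = 0.0046, edgeR). The water channel gene aqp1a.1 fell from 157 ± 22.6 to 119 ± 2.52 CPM (-0.40, adjusted p = 0.0231). Its call was missed when WT library 2 (0.0532) or any bcas2-KO library (0.0699 to 0.0767) was left out. The spectrin gene sptb, known from the zebrafish mutant riesling and chosen here after its values were seen, had 101 ± 6.44 and 117 ± 11.3 CPM and did not pass (0.21, adjusted p = 0.135).

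Among regulators of red cell development other than gata1a and klf17, 1 of 19 fell, 3 rose and 15 did not pass (median 0.02). The LIM domain binding genes ldb1a (log2 fold change 0.48, adjusted p = 0.0184, edgeR) and ldb1b (0.39, adjusted p = 0.0081) rose, and their proteins join GATA and TAL factors on DNA. The kinase gene jak2a, which acts below the erythropoietin receptor, rose from 48.7 ± 2.66 to 68.1 ± 4.92 CPM (0.48, adjusted p = 0.0044). The Krüppel-like gene klf6a fell from 147 ± 30.7 to 92.6 ± 5.88 CPM (-0.67, adjusted p = 0.0117). The erythroid transcription factor gene klf1 (0.34, adjusted p = 0.365), the repressor gene gfi1b (-0.54, adjusted p = 0.251) and the erythropoietin receptor gene epor (-0.42, adjusted p = 0.187), chosen after their values were seen, did not pass. The ldb1a call was missed without WT library 2 (0.0635) and without the first (0.0652) or the third bcas2-KO pool (0.0619). Those of ldb1b, jak2a and klf6a held.

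In the list of red cell enzymes and maturation factors 2 of 19 genes other than the members fell, 3 rose and 14 did not pass (median -0.09). A second carbonic anhydrase gene, ca2, fell from 66.4 ± 8.61 to 50.5 ± 2.38 CPM (log2 fold change -0.39, adjusted p = 0.0242, edgeR), and its call was missed without WT library 2 (0.0878), WT library 3 (0.0566), the first (0.0886) or the third bcas2-KO pool (0.0895). The thioredoxin gene txn fell (-0.74, adjusted p = 0.0066), and the autophagy kinase gene ulk1b rose from 12.0 ± 1.43 to 20.1 ± 0.948 CPM (0.74, adjusted p = 0.0021). Those 2 calls held when each library was left out. The genes ube2h (0.28, adjusted p = 0.0445) and cat (0.30, adjusted p = 0.0454) rose, and each call was lost when any library except WT library 1 was left out (0.0672 to 0.165). Most genes of these 5 lists are also used outside red cells.

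**Figure D5:**
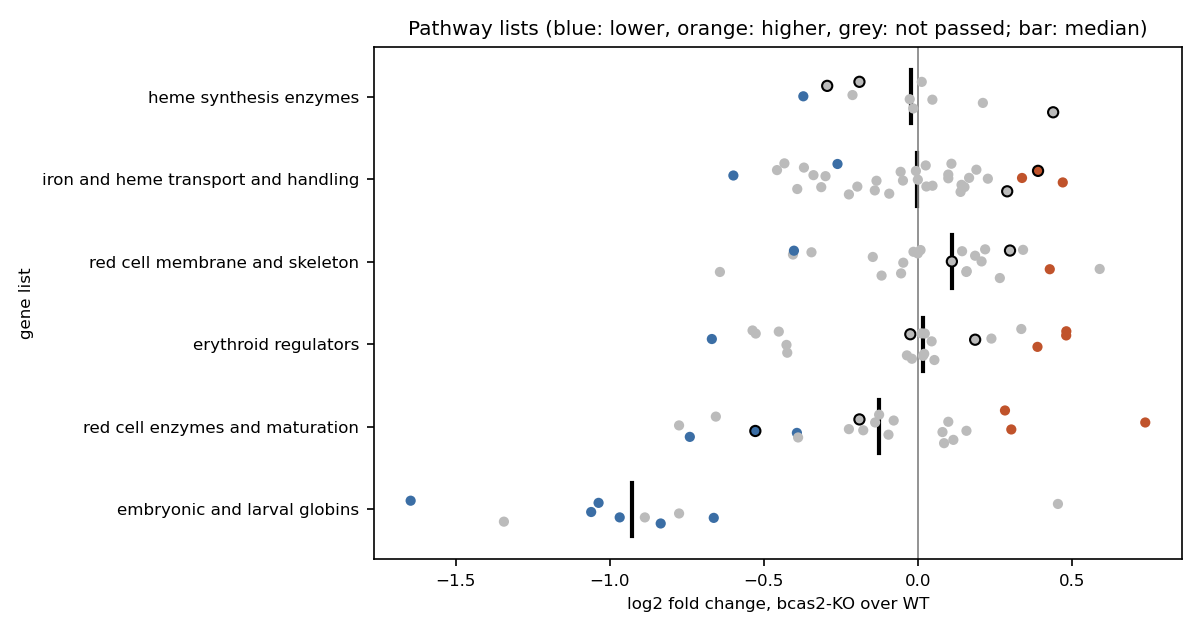
Log2 fold change of bcas2-KO over WT (horizontal axis) for each tested gene of 6 lists (vertical axis). Blue points fell, orange points rose and grey points did not pass, black rims mark the 10 members, and the bar is the list median. The medians of the first 5 lists lie between -0.13 and 0.11 as drawn and between -0.09 and 0.02 without the members, and that of the embryonic globins lies at -0.93.

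Markers of other blood and vessel cells moved as follows, beside 9.01% of all tested genes called lower and 10.6% called higher. Of 14 neutrophil and macrophage markers 4 fell and 0 rose (median -0.44), namely lcp1, mpx, coro1a and mpeg1.1, with mpx at 71.5 ± 14.0 and 32.1 ± 4.50 CPM. Summed over the list they ranged from 292 to 490 CPM in the WT pools and from 196 to 360 CPM in the bcas2-KO pools. Of 11 endothelium markers stab1, kdrl and tek fell and 0 rose (median -0.19), with sums of 294 to 329 CPM in WT and 258 to 308 CPM in bcas2-KO. Of 7 thrombocyte markers 0 passed (median -0.28, smallest p for gp1bb and thbs1b). At an unadjusted p under 0.05 there were 3, and DESeq2 called 0. This list summed to 244 to 329 CPM in WT and 214 to 248 CPM in bcas2-KO. Most of each sum was thbs1b alone, at 221 to 300 CPM in WT and 197 to 225 CPM in bcas2-KO. Among stem and progenitor regulators runx1 fell (log2 fold change -0.68, adjusted p = 0.0154, edgeR), gfi1aa rose (0.93, adjusted p = 0.0317) and 7 of 9 did not pass. The gfi1aa call was missed without WT library 2 (0.112), WT library 3 (0.0598), the first (0.0559) or the third bcas2-KO pool (0.113) or both libraries that held eye transcripts (0.113), and the runx1 call without WT library 2 (0.0718) or bcas2-KO library 1 (0.0753). Those of coro1a, mpeg1.1, kdrl and tek were each missed in 5 or 6 of the 7 fits that left libraries out, with adjusted p up to 0.226. No marker of these lists was at 0 in every library, and their part in the results for the 10 genes was not tested.

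The pattern of alas2 over the 6 libraries was compared with 13376 other genes with a mean of at least 5 CPM. The genes most like it by Pearson's r of log2 CPM, as a description, were tmed2 (0.990), tpcn3 (0.987), si:ch211-222l21.1 (0.986), abhd12 (0.981), spcs2 (0.974), nenf (0.968), hes6 (0.968), prdx6 (0.966), sqlea (0.964) and elovl5 (0.964). None of these 10 was in a list used here. They are the highest of 13376 r values over only 6 libraries, so high values were favoured by the selection, and no p was computed. Of the globins, hbbe1.3 came nearest, at rank 113 with r = 0.895. The members gata1a, klf17 and slc25a37 had a mean under 5 CPM and were not ranked. Among the other members, cahz had r = 0.701, urod 0.570, slc4a1a 0.220, epb41b 0.0444, fech -0.121 and tfr1a -0.598. These values share depth, pools and the difference between genotypes.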

How the data were processed

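The authors deposited whole-number counts of reads per Ensembl gene and a second table with FPKM values of the same genes, 1 column per library. Per the submitters' processing notes, the build was GRCz11. They name STAR 2.6.1a, cutadapt 1.15, StringTie 1.3.3b, featureCounts 1.6.0 and DESeq2 1.22.1, with no roles. Per the labels, the NEBNext Ultra RNA kit was used and reads are paired. Annotation and strand setting are not stated, so reads of a gene and its antisense partner cannot be separated.

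Genes were kept with filterByExpr at a minimum count of 10. Counts were scaled by TMM factors and tested with the quasi-likelihood test of edgeR 4.0.16 (two-sided, robust, genotype only) in R 4.3.3. Adjusted p-values are Benjamini-Hochberg values over 22347 genes, and a gene is called changed under 0.05. SEs come from the test's F value. CPM values use the TMM factors. A floor of 3 counts equals 0.0587 to 0.0923 CPM. The intervals of the fold changes come from the same quasi-likelihood test as the SEs and include the spread between pools. Ratios within a library were tested with exact permutation tests in scipy 1.17.1. On data simulated from these libraries (22154 genes), the test recovered 75.0% of 2-fold and 40.5% of 1.5-fold changes, and 9.46% of its calls were false. There, 79 genes were changed by 1.5-fold, 52 by 2-fold and 64 by 4-fold, far fewer than the genes called here. These shares therefore need not hold for the real comparison.

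Members and lists were chosen with earlier results of these data known. Of the listed symbols, 9 were not found under that spelling and were left out. The genes named are the 10 members, bcas2, up to 5 called genes of each list (or the 2 with the smallest p), and the 10 genes most like alas2, from log2(CPM + 0.5). Libraries of a genotype differed by 13.4 to 36.3 chi-square units per degree of freedom, so none is a copy of another. The p-values set each difference between genotypes against the spread between these pools. Clutches are not stated, so whether that spread includes variation between clutches is unknown. The chromosome of each gene came from a RefSeq table of the assembly GRCz12tu, and positions along the chromosome were not used. Alternatives were DESeq2 1.42.0, limma 3.58.1 on log2(FPKM + 1), other scalings and filters, the replicate number as a block, and leaving libraries out.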

Additional observations from a re-analysis of the deposited data

How the results depend on the processing

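No member changed sign while called, and klf17, near 0, was the one member whose sign differed in some fits. Scalings moved the median of all genes by at most 0.061. Members called lower were 1 in all libraries, 0 without both libraries that held eye transcripts, 2 with upper-quartile factors and 0 to 2 with 1 library left out. Members called higher were 1, 2 with the replicate block, and 0 to 2 with 1 library left out. The pair tfr1a and cahz was called by DESeq2, by limma on FPKM and under all 4 scalings, and 0 members were called without WT library 2 or without bcas2-KO library 1. Counts of all genes ranged from 1013 to 2813 higher and 717 to 2358 lower with 1 library left out. Heme enzymes called lower were 2 with upper-quartile factors (range 0 to 1 with 1 library left out). Iron genes called lower were 1 with library totals only, 1 without a filter and 4 with upper-quartile factors (range 1 to 4), and membrane genes ranged from 0 to 1. Regulators called lower were 3 without the eye libraries, 3 with DESeq2, 3 with the replicate block, 3 with upper-quartile factors, 2 with the stricter filter and 2 with library totals (range 1 to 3). With 1 library left out, red cell enzymes ranged from 1 to 4 and globins from 2 to 8. Globins called were 9 with DESeq2, 4 with library totals, 4 without a filter and 2 without the eye libraries. These list counts include the members. The median log2 ratio of members to globins ranged from 0.867 to 1.23, and that of cahz to slc4a1a from -0.85 to -0.80, with 1 library left out. Leaving the eye libraries out of the ratios was added after the data were seen and gave 0.846 and -0.86. The causes were not tested. Same-numbered libraries deviated together with r = -0.143, 0.375 and 0.0134, and differently numbered ones with r from -0.338 to 0.290. With 3 libraries per genotype these values cannot decide whether the numbers pair the pools. The block gave 2604 higher and 2318 lower genes and added fech (log2 fold change 0.45, adjusted p = 0.0324). Depth limits gata1a and slc25a37 most, at 20 to 72 counts per library. The stricter filter removed slc25a37.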
